A study of Homo sapiens with 13 samples.

Results

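The IRF and RUNX3 mixed arrays are designed enhancers that hold motifs of both names and no other motif. They were found by splitting each deposited construct name at its separators. That rule uses no measured value, though earlier results of these data were known. There were 12 such constructs among the 542 analysed in the 5 bp episomal library, 6 among 442 in the 10 bp episomal library and 12 among 530 listed in the integrated 5 bp library, of which 513, all 12 members included, had the 3 barcodes required. The arrays had 4 syntaxes, each in 3 flanking contexts: IRF_RUNX3, RUNX3_IRF, IRF_RUNX3_IRF and RUNX3_IRF_RUNX3. The 10 bp table held only the arrays of 2 motifs, so a 10 bp form of the 3-motif arrays was not analysed here. Order is given as the construct names spell it, and which end of the name is upstream is not given in the sources used here.

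The study used STARR-seq, in which an enhancer sits inside the transcript it drives and its mRNA share reports its activity. The host was MEC1, an established line from chronic lymphocytic leukaemia, a cancer of B lymphocytes, labelled wild type in every sample. The 13 samples asked how motif number, order, spacing and flanks set the output of synthetic enhancers built from 8 motifs. The 5 bp and 10 bp episomal groups each held 1 plasmid DNA library and mRNA from 2 transfections, harvested after 24 h. The integrated group came from cells that also carried a CRE recombinase and a landing pad with a CMV-driven GFP, into which the 5 bp library was exchanged. Cells were transfected in several sets, sorted for lost GFP after 10 to 12 days and regrown for 6 to 7 days, and RNA and genomic DNA were then taken in triplicate. The labels do not tie those triplicates to separate cultures, so their p-values cover the spread between extractions, which may be technical.

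Interferon regulatory factors are DNA-binding proteins of the immune system, and some of them, such as IRF4 and IRF8, help to set B cell and plasma cell programmes, often with a partner protein on a composite site. RUNX3 belongs to the Runt family, binds DNA together with CBFB, and can activate or repress its targets in lymphocytes and myeloid cells. The construct names do not say which IRF protein a motif was designed for.

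Episomal libraries held between 3850658 and 4563359 reads, of which 16.6% to 18.5% lay on barcodes without a construct name. Members had 364 to 1204 barcodes each with 5 bp spacers and 552 to 967 with 10 bp spacers, after a minimum of 5 plasmid reads per barcode. Activity is the log2 ratio of a construct's mRNA share to its plasmid share, so 0 means equal shares. Every listed episomal barcode had at least 1 read in all libraries of its table, which raises the values of weak constructs. In the 5 bp library 1.55% of the barcodes of IRF_RUNX3 in context 1 and 12.0% of those of RUNX3_IRF_RUNX3 in context 2 had 1 mRNA read, the least a listed barcode can have, in both mRNA libraries. No member's 2 mRNA replicates differed by more than 0.22 log2 units at 5 bp or 0.11 at 10 bp. Integrated members had only 20 to 80 barcodes each, 491 in all, and activity there is the log2 ratio of summed mRNA to summed genomic DNA in RPM (reads as a rate of the whole library), each plus 0.5. Of these barcodes 287 were also named in the episomal 5 bp table, 281 of them (97.9%) with the same construct.

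Each array is read through random 12 bp barcodes, and in the integrated library some members rested on 1 of them. The barcodes with the most mRNA of 3 such members are shown, in lower case as deposited, because single integrated barcodes supplied nearly all of the signal.
RUNX3_IRF_RUNX3 in context 2: tcccagtagtta
RUNX3_IRF_RUNX3 in context 1: tcaattttttaa
RUNX3_IRF in context 2: tgtaatgcccgg
The first of them held 100% of its construct's integrated mRNA after rounding, the next 87.4% and the last 85.2%. In the episomal 5 bp library the largest share of a member's mRNA on 1 barcode was 8.55%, in IRF_RUNX3 in context 3.

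With 10 bp spacers every IRF and RUNX3 mixed array was active, and every one lay between its parents. All 6 exceeded rd, the construct without a motif name, of the same context, by 0.70 to 1.88 log2 units, where 44.9% of all constructs were called higher. All 6 were lower than the array of 2 IRF motifs in the same context, by 0.38 to 1.18 log2 units (27.3% of all such differences were called lower). All 6 were higher than the array of 2 RUNX3 motifs, by 0.85 to 1.21 (59.0% called higher). These calls come from edgeR's quasi-likelihood fit with Benjamini-Hochberg adjusted p under 0.05, adjusted over all constructs or pairs of each comparison. Here and below, a share of all such differences or changes pools the mixed constructs of every motif pair, each against arrays of its own motifs. It is not a share for IRF or RUNX3 arrays alone. In all 6, mRNA exceeded plasmid DNA in edgeR's own contrast, against 45.7% of all constructs.

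The most active member at 10 bp was IRF_RUNX3 in context 1, with activities of 1.19 and 1.22 in the 2 mRNA libraries. Its matched IRF_IRF array read 1.76 and 1.77, RUNX3_RUNX3 read 0.32 and 0.33, and rd read -0.62 and -0.74. The replicates of these 4 constructs did not overlap. IRF_RUNX3 in context 1 was 3.69-fold above rd (log2 difference 1.88 ± 0.083 SE, edgeR adjusted p = 2.90e-12), and 25th of 442 constructs in activity. The least active member was RUNX3_IRF in context 2, at 0.36 and 0.43. It lay above rd at -0.27 and -0.35 and RUNX3_RUNX3 at -0.69 and -0.67, and below IRF_IRF at 1.55 and 1.60. Its difference from rd was 0.70 ± 0.088 log2 units (SE; edgeR adjusted p = 1.10e-06), a 1.63-fold rise.

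The mixture can also be set against the average of its motifs, meaning the mean of its matched IRF and RUNX3 arrays on the log2 scale, weighted by its copies of each. At 10 bp, 2 of 6 members passed as higher than that mean, where 65.1% of all mixed constructs did, and the other 4 did not pass in either direction. Against the unlogged average of the parents 1 was higher (57.2% of all mixed constructs) and 2 were lower (28.3%), namely IRF_RUNX3 in context 2 (-0.42) and RUNX3_IRF in context 2 (-0.45). The median log2 departure was 0.10 for the members and 0.53 over all mixed constructs. The largest was in RUNX3_IRF in context 3, whose activities of 0.78 and 0.87 gave departures of 0.40 and 0.44 in the 2 libraries. Both values lay above the average of its parents, with a fitted departure of 0.42 ± 0.067 (SE; edgeR adjusted p = 2.39e-05). The other call, IRF_RUNX3 in context 1, had a departure of 0.16 ± 0.064 (edgeR adjusted p = 0.0281) and was lost without mRNA replicate 1 (adjusted p = 0.0563) or without replicate 2 (0.0831).

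With 5 bp spacers, where the members also included 3-motif arrays, the same motifs gave weaker and more divided results. Of the 12 members, 6 were higher than rd of their context and 4 lower, against 61.8% and 28.2% of all constructs, and the median difference was 0.20 log2 units where that of all constructs was 0.51. All 6 higher members except IRF_RUNX3_IRF in contexts 1 and 3 held 2 motifs. Of the 4 lower members, 3 held 3 motifs and the other was IRF_RUNX3 in context 3. IRF_RUNX3 in context 2 (0.09 ± 0.091 SE) and RUNX3_IRF_RUNX3 in context 1 (0.02 ± 0.081) did not pass. In edgeR's contrast of mRNA with plasmid DNA 10 members were lower (52.0% of all constructs) and 2 higher (38.6%). That split follows the scaling. With plain library totals, the kind of scale behind the activities given here, 12 were lower and 0 higher. With libraries scaled on the rd constructs 4 were lower and 5 higher. The differences between constructs reported here do not move with library scaling.

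IRF_RUNX3 in context 1 was again the highest member, with activities of -0.08 and -0.11. Those values overlapped with its IRF_IRF array at -0.11 and -0.08 and stood above RUNX3_RUNX3 at -0.82 and -0.80 and rd at -1.27 and -1.23. Its excess over rd was 1.16 ± 0.085 log2 units (SE; edgeR adjusted p = 2.35e-09), a 2.23-fold difference. At the other end RUNX3_IRF_RUNX3 in context 2 read -1.83 and -1.89. Its rd construct read -1.06 and -1.17, RUNX3_RUNX3_RUNX3 read -1.37 and -1.36, and IRF_IRF_IRF read -0.94 and -0.85, so the array with both motifs lay below all 3 in both libraries. It was 1.68-fold below rd (-0.75 ± 0.095 SE, edgeR adjusted p = 9.74e-05).

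Against the IRF array of equal copies, 9 of 12 members at 5 bp were lower and none passed as higher, with 30.2% of all such differences called lower. The 3 that did not pass were IRF_RUNX3 in context 1 (0.0029 ± 0.076 SE), IRF_RUNX3_IRF in context 1 (-0.21 ± 0.10) and RUNX3_IRF in context 3 (-0.02 ± 0.083). Without any adjustment, at p under 0.05, the count as higher also stayed at 0, and DESeq2 gave 0. Against the RUNX3 array of equal copies 5 members were higher and 4 lower, with 52.6% of all such differences called higher. The 4 lower became 2 with DESeq2 or without mRNA replicate 1. The 5 higher were the RUNX3_IRF arrays in all 3 contexts, IRF_RUNX3 in context 1 and IRF_RUNX3_IRF in context 3.

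The 3-motif array with IRF at its centre was below both parents in every context. RUNX3_IRF_RUNX3 lay 0.52, 0.97 and 1.23 log2 units below IRF_IRF_IRF in contexts 1, 2 and 3, and 0.20, 0.50 and 0.25 below RUNX3_RUNX3_RUNX3. IRF_RUNX3_IRF in context 2 was the fourth member called lower than both, by 0.83 and 0.36. So 4 of 12 members lay below both their homotypic arrays, as did 6.46% of all 418 mixed constructs and 15 of the 154 mixed constructs of 3 motifs. The largest of the 8 edgeR adjusted p-values behind these calls was 0.0432, for RUNX3_IRF_RUNX3 against RUNX3_RUNX3_RUNX3 in context 1. The count was 2 with DESeq2, 2 without mRNA replicate 1 and 3 without mRNA replicate 2. This count was chosen after the values were seen. At 10 bp 0 of 6 members were below both by edgeR, also at an unadjusted p under 0.05, and DESeq2 gave 0, where 5.35% of all mixed constructs were. All 4 members below both at 5 bp held 3 motifs, a design not analysed at 10 bp. The spacers therefore cannot be compared in this count.

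The departures from the parents' average at 5 bp were mostly negative. Of 12 members 7 were lower than the copy-weighted mean and 2 higher, where 29.2% and 56.5% of all mixed constructs were, and the medians were -0.26 and 0.37. Among the 3-motif members 5 of 6 were lower, at -0.67 to -0.29, and IRF_RUNX3_IRF in context 1 (-0.11 ± 0.082 SE) did not pass. The lowest was IRF_RUNX3_IRF in context 2, with activities of -1.76 and -1.69 and departures of -0.67 and -0.67. Its edgeR estimate was -0.67 ± 0.075 (SE, adjusted p = 5.09e-05). The highest was IRF_RUNX3 in context 1, whose departures were 0.38 and 0.34 (edgeR estimate 0.36 ± 0.065 SE, adjusted p = 9.21e-05), and RUNX3_IRF in context 3 had 0.36 ± 0.072. The pair's median departure was 20th of 28 motif pairs at 5 bp, 17th at 10 bp and 20th in the integrated library.

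A second question is what the added motif does to the array that lacks it, with the copies of the other motif kept. This comparison was added after the data were seen. At 5 bp, 8 of 12 members were lower than the array with as many IRF copies and no RUNX3, and 3 were higher (26.5% of all such differences were lower). The extremes were both cases of 1 IRF motif: RUNX3_IRF_RUNX3 in context 2 lay 3.13-fold below IRF alone (-1.65 ± 0.087 SE, edgeR adjusted p = 3.66e-07), and IRF_RUNX3 in context 1 lay 1.37-fold above it (0.46 ± 0.082). At 10 bp the 4 members in contexts 1 and 2 were above IRF alone, by 0.73 to 0.83 log2 units, and the 2 in context 3 were below it, by 0.34 and 0.70 (47.4% of all were higher and 35.2% lower). IRF alone in context 3 read 1.17 and 1.16 at 10 bp, against 0.43 and 0.32 in context 1 and -0.31 and -0.36 in context 2. It was the strongest single IRF motif of the 3 there and, at 5 bp, the weakest, at -1.48 and -1.34. Members against the array with as many RUNX3 copies and no IRF were all higher at 10 bp, by 1.42 to 1.78, while at 5 bp 4 were higher (57.7% of all), 4 lower and 4 did not pass.

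Lengthening the spacer from 5 to 10 bp went with higher activity in every member that was measured at both. All 6 rose in edgeR's contrast, by 1.15 to 2.25 log2 units, where 36.0% of all constructs rose. IRF_RUNX3 in context 3 moved most, from -1.81 and -1.74 at 5 bp to 0.41 and 0.51 at 10 bp, a 4.74-fold difference (2.25 ± 0.084 SE, edgeR adjusted p = 1.08e-12). RUNX3_IRF in context 2 moved least, from -0.77 and -0.72 to 0.36 and 0.43, a 2.22-fold difference (1.15 ± 0.085, edgeR adjusted p = 3.53e-09). The 10 bp replicates of each member lay above its 5 bp replicates without overlap, and no member fell.

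The rd constructs read higher at 10 bp as well. In means of 2 libraries, rd read -1.25 at 5 bp and -0.68 at 10 bp in context 1. It read -1.12 and -0.31 in context 2, and -1.55 and -0.87 in context 3. The members also rose relative to rd. The excess over rd grew in all 6, by 0.34 to 1.56 log2 units (16.2% of all constructs), while over all constructs its median change was -0.76. The members rose less than the IRF_IRF array in 5 of 6 cases, by 0.35 to 0.76 (37.7% of all such changes were called lower), and IRF_RUNX3 in context 3 did not pass (-0.13 ± 0.12 SE). They rose more than RUNX3_RUNX3 in 5 of 6, by 0.37 to 1.01 (34.4% called higher), and IRF_RUNX3 in context 1 did not pass (0.16 ± 0.11). The departure from the parents' average changed in 2 of 6, where 31.1% of all mixed constructs rose: IRF_RUNX3 in context 2 by 0.29 ± 0.10 and in context 3 by 0.28 ± 0.10 (edgeR adjusted p = 0.0221 and 0.0250). That count fell to 1 without 5 bp mRNA replicate 1 and to 0 without 5 bp mRNA replicate 2. The spacers were tested in different plasmid pools and transfections, which cannot be told apart from spacing.

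In context 3 RUNX3_IRF exceeded IRF_RUNX3 at both spacings. At 5 bp IRF_RUNX3 read -1.81 and -1.74 and RUNX3_IRF -1.21 and -1.16 (log2 difference -0.59 ± 0.085 SE, edgeR adjusted p = 3.68e-05). At 10 bp they read 0.41 and 0.51 against 0.78 and 0.87, a 1.29-fold difference (-0.36 ± 0.078, edgeR adjusted p = 0.00108). The replicates of the 2 orders did not overlap in either library. All 3 order pairs passed at 5 bp, where 63.1% of all order pairs did, with IRF_RUNX3 higher in context 1 (0.23 ± 0.082) and lower in context 2 (-0.28 ± 0.086). Without 5 bp mRNA replicate 2 these lost their calls (adjusted p = 0.0921 and 0.0553), leaving context 3. At 10 bp context 3 was the 1 pair of 3 that passed (54.8% of all pairs), and the differences in contexts 1 and 2 were 0.02 ± 0.079 and 0.04 ± 0.081. The change of the order difference between spacers was not tested.

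Which motif takes the outer positions of the 3-motif arrays was compared after the data were seen. IRF_RUNX3_IRF, with the additional IRF copy, exceeded RUNX3_IRF_RUNX3 by 0.31 ± 0.079 log2 units (SE) in context 1 and by 0.61 ± 0.10 in context 3 at 5 bp (edgeR adjusted p = 0.0068 and 0.000643). In context 2 the difference of 0.14 ± 0.089 did not pass. So 2 of 3 were called higher, where 53.5% of all such pairs were. The sign of each pair follows the alphabet of its motif names, so that share does not describe a given motif. Number of IRF copies and position change together in this pair of designs and cannot be told apart.

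Flanking context divided the members as well. At 5 bp 11 of the 12 pairs of contexts passed, where 54.8% of all context pairs did, and context 1 was highest for all 4 syntaxes. IRF_RUNX3 fell from -0.09 in context 1 to -1.03 in context 2 and -1.77 in context 3 (means of 2 libraries, SD 0.022, 0.029 and 0.052). The difference between contexts 1 and 3 was 3.21-fold (-1.68 ± 0.081 SE, edgeR adjusted p = 5.45e-10). RUNX3_IRF_RUNX3 in contexts 2 and 3 differed by 0.02 ± 0.088, which did not pass. At 10 bp 5 of 6 pairs passed, where 74.7% of all did, and context 1 was again highest for both syntaxes, by 0.36 to 0.79. The rd constructs ran from -1.55 in context 3 to -1.12 in context 2 at 5 bp, so their order differed from that of the members. The 2-motif parents shared the members' pattern. In contexts 1, 2 and 3 at 5 bp IRF_IRF read -0.09, -0.32 and -1.16, and RUNX3_RUNX3 -0.81, -1.13 and -1.93. At 10 bp both were highest in context 1, at 1.77 and 0.32. Of the 3-motif parents at 5 bp, RUNX3_RUNX3_RUNX3 was highest in context 1 (-1.03) and IRF_IRF_IRF in context 3 (-0.61).

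In the integrated library RUNX3_IRF_RUNX3 had mRNA on few of its barcodes and IRF_RUNX3_IRF on more. Pooled over contexts, the share of barcodes with mRNA was 30.4% ± 3.84 for IRF_RUNX3_IRF (SD, n = 3 extractions, 159 barcodes), 19.3% ± 2.41 for RUNX3_IRF (83 barcodes), 17.9% ± 1.17 for IRF_RUNX3 (99 barcodes) and 2.89% ± 0.385 for RUNX3_IRF_RUNX3 (150 barcodes). The pooled extractions of RUNX3_IRF_RUNX3, at 2.67%, 2.67% and 3.33%, did not overlap with those of the other 3 syntaxes. By context the mean shares of RUNX3_IRF_RUNX3 were 4.90%, 2.67% and 2.02% in contexts 1, 2 and 3, and those of IRF_RUNX3_IRF 27.3%, 26.7% and 33.8%. RUNX3_IRF stood at 27.4%, 16.7% and 8.33% and IRF_RUNX3 at 20.0%, 19.4% and 15.0%, so their order changed with the context, and in context 1 RUNX3_IRF was at the level of IRF_RUNX3_IRF. In all, 9 of the 150 barcodes of RUNX3_IRF_RUNX3 had mRNA in any extraction (6.00%, exact binomial 95% interval 2.78% to 11.1%, counting error only). For IRF_RUNX3_IRF the count was 93 of 159 (58.5%, 50.4% to 66.2%). The homotypic arrays of 3 motifs lay at 65.1% ± 8.73 for IRF and 5.65% for RUNX3, and the rd constructs at 9.49% ± 3.08. Members as a whole stood at 17.6% ± 1.78 and all constructs at 19.6% ± 2.66. Barcodes are not replicates, so these shares carry no test.

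By summed RPM all 12 integrated members were lower than the IRF array of equal copies and context, where limma called 22.6% of all such differences lower. The differences ran from -1.21 for RUNX3_IRF in context 1 to -4.43 for RUNX3_IRF_RUNX3 in context 1, apart from RUNX3_IRF_RUNX3 in context 3, which was listed at 0 mRNA in 1 extraction. The count was 10 without replicate 1, 8 without replicate 2 and 7 without replicate 3. Against the RUNX3 array 5 of 12 were higher (24.8% of all) and the other 7 did not pass, and the count was 3 without any 1 of the replicates. By limma 0 members were lower than both homotypic arrays, also at an unadjusted p under 0.05, where 6.40% of all mixed constructs were. RUNX3_IRF_RUNX3 was not called against RUNX3_RUNX3_RUNX3 in any context (limma adjusted p = 0.163, 0.120 and 0.173), and its estimates lay below that array in contexts 1 and 3 and above it in context 2 (1.67 ± 0.75 SE).

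RUNX3_IRF in context 1 was the most active integrated member, at 0.15, -0.08 and -0.62 in the 3 extractions. Its IRF_IRF array read 0.95, 1.12 and 1.03, its RUNX3_RUNX3 array -4.93, -4.83 and -5.05, and its rd construct -0.87, -0.86 and -1.27. The member lay between its parents and above rd in every extraction. It departed from its parents' average by 1.77 ± 0.24 log2 units (SE; limma adjusted p = 0.00426), with departures of 2.14, 1.78 and 1.39. Against the unlogged average of its parents the sign turned and the call was lost (-0.24 ± 0.27 SE, limma adjusted p = 0.485). Without each construct's most abundant barcode the log2 departure was 2.31 and did not pass (adjusted p = 0.148). The least active was RUNX3_IRF_RUNX3 in context 3, with 34.6, 0 and 90.0 RPM of mRNA against 1699 to 2004 RPM of genomic DNA, and no fold is given for it.

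Of the 12 integrated departures 1 was called higher (22.4% of all mixed constructs) and 3 lower (14.9%). The lower ones were RUNX3_IRF_RUNX3 in context 1 (-2.18 ± 0.50 SE), IRF_RUNX3_IRF in context 1 (-1.64 ± 0.38) and IRF_RUNX3 in context 2 (-1.11 ± 0.19), with limma adjusted p of 0.0227, 0.0225 and 0.0104. RUNX3_IRF_RUNX3 in context 1 read -1.85, -3.18 and -3.56, with departures of -1.59, -2.38 and -2.57. It lay below the average of its parents in every extraction, and 87.4% of its mRNA was on 1 barcode. The count of 3 was 1 without replicate 1, 2 without replicate 2 and 1 without replicate 3. Against the unlogged average 9 members were lower (24.5% of all mixed constructs) and 0 higher (17.6%), also 0 at an unadjusted limma p under 0.05, so this tally depends on the scale of the average.

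Against rd of the same context 3 integrated members were higher (30.6% of all constructs) and 5 lower (27.8%). The higher were IRF_RUNX3_IRF and IRF_RUNX3 in context 3 and RUNX3_IRF in context 1. The 3 rd constructs themselves averaged from -3.77 in context 3 to 0.75 in context 2, and 1 barcode held 84.0% of the mRNA of the one in context 2. All 4 members of context 2 were lower than that construct. The count of 5 was 1 without replicate 1, 3 without replicate 2 and 2 without replicate 3, and it was 1 without each construct's most abundant barcode. In the comparison of mRNA with genomic DNA 9 members were lower (55.9% of all constructs) and 3 did not pass, and the 9 became 5, 5 and 7 without replicates 1, 2 and 3. With values centred on the rd constructs 2 were lower and 2 higher.

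Order, context and outer motif gave few calls after integration. None of the 3 order pairs passed limma's test (31.0% of all pairs did), with differences of -0.96 ± 0.32, -0.46 ± 0.25 and 1.84 ± 0.64 (SE) in contexts 1, 2 and 3 and adjusted p of 0.0768, 0.216 and 0.0807, and at an unadjusted p under 0.05 there were 2. In contexts 1 and 3 the sign was opposite to the episomal one at 5 bp (0.23 and -0.59 there). The difference between assays was not tested. Without replicate 3 the pair in context 1 passed (-1.40, adjusted p = 0.0477). Of the 12 pairs of contexts 2 passed (25.8% of all), both with RUNX3_IRF lowest in context 3, at -5.16, -3.15 and -2.64, and both calls were lost without replicate 2 or replicate 3. IRF_RUNX3_IRF exceeded RUNX3_IRF_RUNX3 in 1 of 3 contexts (35.2% of all such pairs were higher, with signs set by alphabet). This was context 3, where RUNX3_IRF_RUNX3 had an extraction listed at 0. That call was lost without replicate 1 or replicate 3.

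Against the array with as many IRF copies 6 integrated members were lower and none higher (17.8% of all such differences were lower), and against the array with as many RUNX3 copies 6 were higher and none lower (21.5% were higher). In the first of these comparisons 8 were lower and none higher at an unadjusted limma p under 0.05, and in the second 8 were higher and none lower. RUNX3_IRF in context 1 was 5.55-fold above RUNX3 alone (2.47 ± 0.50 SE, limma adjusted p = 0.016) and differed from IRF alone by 0.0060 ± 0.29, which did not pass. IRF_RUNX3_IRF in context 2 lay 8.58-fold below IRF_IRF (-3.10 ± 0.31, limma adjusted p = 0.0027). Both counts of 6 fell when 1 replicate was left out, to between 1 and 2 for IRF and between 2 and 4 for RUNX3.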

How the data were processed

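The episomal tables give the authors' raw counts of reads per barcode, and the integrated table their RPM per barcode for mRNA and genomic DNA, per the file headers. Not given in the sources used here were the aligner, the barcode counting and the motif and flank sequences. There were 9 more per-sample columns that fit no label, and they were left out. Barcodes without a name stayed out of library sizes. Reads of barcodes with at least 5 plasmid reads were summed per construct (at least 5 barcodes; integrated at least 3).

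The 442 shared constructs were fitted over 6 libraries with edgeR 4.0.16 (quasi-likelihood, TMM) in R 4.3.3, with plasmid DNA assumed to vary like mRNA. The 3-motif members came from a fit of the 3 libraries of the 5 bp table. Its tests had 7.51 degrees of freedom, most of them borrowed from the spread over all constructs, against 15.3 in the shared fit. Integrated values were fitted with limma 3.58.1 on log2(RPM + 0.5), which understates folds of weak constructs. DESeq2 1.42.0 was an alternative. Differences between constructs were tested with the fits' standard errors, taking constructs as independent, with Benjamini-Hochberg adjustment over all constructs or pairs of a comparison. Scripts were tested on data simulated per construct. The simulated integrated data had no single barcodes or empty extractions, so that test does not cover the weak integrated members. PCR reads carry no molecular identifiers. Members and lists were chosen with earlier results of these data known. Full values are given for the highest and lowest members, the largest called departures, spacing differences and order pairs of each library, a rule fixed with the design. The comparisons of outer motif, of added motif, with both parents at once, and of the spacer change relative to rd or a parent, were added after the data were seen.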

Additional observations from a re-analysis of the deposited data

Results flagged for a closer look

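All 6 of the members' activities, and 2 of their 6 departures, were higher at 10 bp than at 5 bp. The test was edgeR's, of the difference itself. By the same test 36.0% of all constructs were higher at 10 bp in activity, and 31.1% of all mixed constructs in departure. In departure the members' count was near that share, and it changed under alternatives given below. Activity was higher at 10 bp by 1.31 (IRF_RUNX3 in context 1), 1.47 (context 2) and 2.25 (context 3), and by 1.51 (RUNX3_IRF in context 1), 1.15 (context 2) and 2.02 (context 3), all on the log2 scale. The departure from the parents' average was higher at 10 bp by 0.29 for IRF_RUNX3 in context 2 and by 0.28 in context 3. The rd constructs also read higher at 10 bp, by less than the members of their context. Plasmid pool and transfection differ with the spacer and cannot be told apart from it.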

How the results depend on the processing

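Of 345 alternative values of counts and shares 288 stayed within 1.5 times of the main value, or 1 SD for shares, and 57 did not. Of 546 alternative values of single departures, order pairs and outer-motif pairs, 451 kept direction and call, 34 lost the call, 32 gained one and 29 changed sign. Causes were not tested unless the alternative's construction shows them. Scaling on rd gave 4 lower and 5 higher members in mRNA against DNA at 5 bp, and 2 lower and 2 higher in the integrated library.

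Plasmid DNA was sequenced once per spacer and integrated members have few barcodes, which limits precision there.

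At 5 bp DESeq2 gave 2 members below both parents. At 10 bp the members above the copy-weighted mean numbered 1 with DESeq2, 1 with at least 20 plasmid reads, 0 against the more active parent and 1 against the unlogged mean, with 2 below it. The change of departure with spacing was called in 1 with DESeq2 and in 0 with 20 plasmid reads.

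Against the more active parent, by construction a higher bar, departures turned negative at 5 bp in RUNX3_IRF (-0.22 in context 1, -0.025 in context 3), at 10 bp in IRF_RUNX3 (-0.56 in context 1, -0.74 in context 3) and RUNX3_IRF (-0.58 in context 1, -0.38 in context 3), and integrated in IRF_RUNX3 (-2.17 in context 1, -1.35 in context 3), RUNX3_IRF in context 1 (-1.21) and RUNX3_IRF_RUNX3 in context 2 (-2.19). Against the unlogged mean they turned negative at 10 bp in IRF_RUNX3 (-0.013 in context 1, -0.15 in context 3) and RUNX3_IRF in context 1 (-0.032), and integrated in IRF_RUNX3 (-1.20 in context 1, -0.52 in context 3), RUNX3_IRF in context 1 (-0.24) and RUNX3_IRF_RUNX3 in context 2 (-0.79). The integrated count below was 12 against the more active parent, 9 against the unlogged mean and 1 with limma on departures per replicate.

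With 20 plasmid reads per barcode the sign turned for the departures of RUNX3_IRF in context 2 at 5 bp (0.020) and IRF_RUNX3 in context 2 at 10 bp (0.023), and for the order pair in context 1 at 10 bp (-0.091). The median over barcodes gave 0.018 for IRF_RUNX3 in context 2 at 10 bp. The spacing change in departure of RUNX3_IRF in context 1 was -0.015 without a plasmid minimum and ran from -0.065 to 0.085 over left-out replicates. These departures and this order pair were not called in the main analysis.

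Without each construct's most abundant integrated barcode, 1 member was below rd, 2 above RUNX3, 1 above the array with as many RUNX3 copies, 1 context pair lower and 2 outer-motif pairs higher. Signs turned in the departures of IRF_RUNX3 in context 3 (-0.67), IRF_RUNX3_IRF in context 2 (0.36) and RUNX3_IRF_RUNX3 in context 2 (-7.01). In the last of these almost no mRNA was left. The order pair of context 2 also changed sign (1.92). Outer-motif pairs called higher were 2 with at least 10 barcodes, 2 with pseudocount 5 and 0 with pseudocount 0.1.

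Leaving out each replicate in turn, integrated counts ranged from 5 to 7 (lower in mRNA than in DNA), 1 to 3 (below rd), 7 to 10 (below IRF), 3 (above RUNX3), 1 to 2 (below the parents' mean), 0 to 2 (contexts), 0 to 1 (outer motif), 1 to 2 (below as many IRF copies) and 2 to 4 (above as many RUNX3 copies). The outer-motif pair in context 2 ran from -0.40 to 0.43. The 5 bp count below both parents ran from 2 to 3 and of lower order pairs from 1 to 2, the 10 bp count above the parents' mean was 1, and the spacing count of departures ran from 0 to 2. A fit left with 1 mRNA library assumes that it varies like the others. Fitting each spacer alone was not run for differences between spacers, which need both libraries in 1 fit.

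Same-numbered integrated mRNA and genomic DNA samples correlated at -0.018, 0.046 and -0.027 in their deviations from each construct's mean. Such correlations cannot show whether the samples are paired. Activities per extraction were taken from same-numbered samples. With the replicate block 3 members were below rd, 3 above RUNX3, 0 below the parents' mean, 0 context pairs lower, 0 outer-motif pairs higher and 3 below the array with as many IRF copies. The episomal block changed no call of a spacing count by over 1.5 times.

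Shares of integrated barcodes with mRNA in at least 2 of 3 extractions were 13.9% over members, 12.1% for IRF_RUNX3, 14.5% for RUNX3_IRF, 26.4% for IRF_RUNX3_IRF and 1.33% for RUNX3_IRF_RUNX3.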
